A study of Mus musculus with 39 samples.

Results

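The skin of old mice given vehicle was compared with the skin of young mice, in 3 libraries of each, and every expressed gene was examined. All mice were C57BL/6 and lacked perforin (Prf1-/-), the pore-forming protein of cytotoxic lymphocytes, so that the young controls carried the deletion too and no wild-type skin entered. The young mice were 3 months old and untreated. The old mice were 20 months old and had received a vehicle solution on 2 consecutive days of each month for 2 months, starting at 18 months, as controls for the BCL-2 family inhibitor ABT-737. The study describes the dosed mice as males, and the sex of the young mice was not given in the sources used here. Age, the injections and any difference in cohort or hour of collection cannot be told apart. Of the 39 libraries of the series 9 are from skin. The 3 from old mice given ABT-737 at 25 mg/kg entered the model but not the comparison. They shared in estimating the spread, scaling the libraries and choosing the genes to test. The treatment of those 3 is written in the labels as ABT-737, ABT-738 and ABT-739, although their titles and protocol name 1 drug. Tissue was taken whole after perfusion, and only the 3′ ends of polyadenylated transcripts were read. Of 52508 genes in the skin table, 14224 had enough counts to be tested. Each tested gene was placed in a clock, hair-cycle or composition class by lists of known genes, and the remainder, 13889 genes, formed the rest. A gene can stand on several lists and was then counted in each of them. Old and young mice are numbered separately in the labels, and below vehicle 3, 4 and 5 and young 1, 2 and 3 are the names of single libraries.

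Skin is a mixture of tissues, and several of its parts change on their own calendars. The circadian clock runs in nearly every cell as a loop in which the activators Clock and Arntl (also called Bmal1) switch on their own repressors, so that the level of a clock gene depends on the hour of collection. Hair follicles pass through growth, regression and rest, and the growing follicle makes large amounts of keratins and keratin-associated proteins that a resting follicle does not make. A biopsy of mouse skin also carries the thin muscle sheet beneath it, fat, vessels, nerves, blood and immune cells in varying shares. In bulk tissue, fewer cells of a type and less RNA per cell cannot be told apart.

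Between old vehicle and young skin 1592 of the 14224 genes (11.2%) passed an adjusted p-value of 0.05, 831 of them higher (5.84%) and 761 lower (5.35%) in old skin. An unadjusted p under 0.05 was found for 4520 of the 14224 genes, and such counts for single lists below are to be read beside that share. Of the clock class 9 of 22 genes passed, 2 higher and 7 lower. Of the hair-cycle class 5 of 125 passed, 3 higher and 2 lower. Of the composition class 54 of 188 passed, 52 higher and 2 lower, and of the rest 1524 passed, 774 higher and 750 lower. Most genes that differed were on none of the clock, hair-cycle or composition lists, as were most genes tested (13889 of 14224). The share that passed was 40.9% in the clock class, 4% in the hair-cycle class, 28.7% in the composition class and 11% in the rest. The median log2 fold change over all genes was 0.05, against −1.08 in the clock class, 4.49 in the hair-cycle class and 1.04 in the composition class. The 3 old and 3 young values did not overlap in 39.5% of all genes tested. Among called genes of the rest this held for 772 of 774 higher and 750 of 750 lower. For a called gene, separate groups therefore add little to the call. The number of calls leaned on single libraries. It was 39 without young 1, 41 without young 2, 686 without young 3, 382 without vehicle 5 and 2459 without ABT-737 replicate 3, and between 1098 and 1588 without each of the other 4 libraries. Differences are given below as log2 fold changes, vehicle over young, with the standard error of the edgeR fit, and levels as CPM, the counts of a gene scaled to a common library size.

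**Figure D1:**
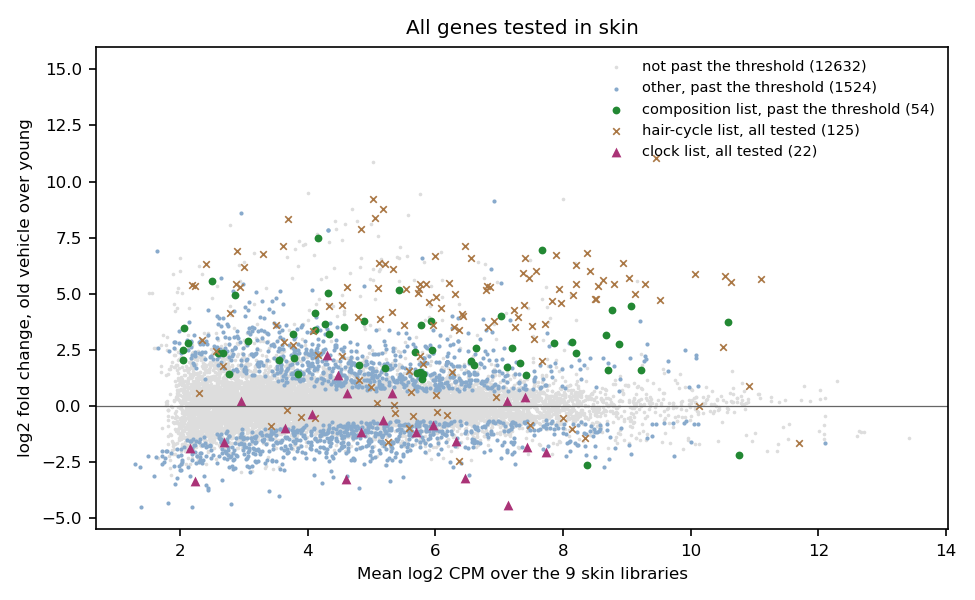
Each point is 1 of the 14224 genes tested, with its mean log2 CPM over 9 skin libraries on the x axis and its log2 fold change, old vehicle over young, on the y axis. Clock genes past the threshold reach −4.42, hair-cycle genes spread up to 11.05 with few passing, and composition genes that passed lie almost all above 0.

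The libraries differed in depth and in likeness before any gene was considered. Totals ran from 1493411 to 2271560 counts in young and from 2246887 to 3569858 in vehicle libraries, with vehicle 3 just below young 3. The 3 young libraries correlated with each other at 0.94 to 0.97 across genes (Pearson's r of log2 CPM), and the vehicle libraries at 0.88 to 0.90. Vehicle 4 was most like ABT-737 replicate 3 (0.96) and vehicle 3 most like ABT-737 replicate 5 (0.95). Vehicle 4 was also more like young 3 (0.914) and young 2 (0.893) than like vehicle 3 (0.884) or vehicle 5 (0.881), and less like young 1 (0.849). The labelled tissue was evident from its markers, with keratinocyte differentiation genes summing to between 6270 and 29470 CPM. The 11 listed genes marking other organs summed to 289, 44.3 and 21.8 CPM in young and 51.0, 104 and 17.9 CPM in vehicle skin. Of these genes 4 were tested and 0 passed, a comparison of the groups that cannot show whether other tissue was present. Reads at Prf1 were present in every library, at 10.9, 10.9 and 20.0 CPM in young and 18.9, 36.3 and 46.6 CPM in vehicle skin. The labels do not say which part of the gene was disrupted, so reads from its 3′ end check nothing about the genotype.

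The clock class had the highest share of called genes of the 4 classes, at 40.9%. Dbp, a D-box-binding activator whose level follows the clock closely, stood at 406, 398 and 359 CPM in the young libraries and at 18.0, 13.9 and 22.3 CPM in vehicle 3, 4 and 5. Every old library lay far below every young one, and the log2 fold change was −4.42 ± 0.36 (adjusted p = 0.0018). Per3, a period repressor, was at 62.9, 47.8 and 57.8 CPM against 7.47, 5.69 and 4.69 CPM (log2 −3.25 ± 0.25, adjusted p = 0.0018). Nr1d1, the nuclear receptor REV-ERBα that represses Arntl, was at 234, 223 and 224 CPM against 21.97, 34.9 and 15.4 CPM (log2 −3.24 ± 0.39, adjusted p = 0.00874). The spread among the young libraries was small beside these gaps. Usp2, a clock-controlled ubiquitin protease, was at 370.5, 316 and 283 CPM in young and 104, 104 and 67.3 CPM in vehicle skin (log2 −1.82 ± 0.22, adjusted p = 0.00874). In the deposited annotation Dbp lies at chr7:45705088-45710203, Per3 at chr4:151011437-151031497, Nr1d1 at chr11:98767347-98770426 and Usp2 at chr9:44084950-44095926 (mm10).

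The other clock genes that fell were Tef, a relative of Dbp, Ciart, a repressor also known as Chrono, and Nr1d2, the second REV-ERB receptor. Tef was at 429.8, 448 and 427 CPM in young and 109, 135 and 70.9 CPM in vehicle skin (log2 −2.05 ± 0.39, adjusted p = 0.0175). Ciart was low everywhere, with 14, 10 and 32 counts in young and 5, 0 and 3 counts in vehicle libraries (log2 −3.38 ± 0.74, adjusted p = 0.0259). Nr1d2 had 11, 12 and 12 counts against 3, 3 and 10 counts in vehicle libraries (log2 −1.89 ± 0.47, adjusted p = 0.0359). For both, the difference rests on few counts.

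The arm of the loop that peaks at the opposite time moved the other way. Arntl was at 2.17, 4.03 and 9.55 CPM in young and 20.2, 42.0 and 18.5 CPM in vehicle skin (log2 2.27 ± 0.52, adjusted p = 0.028). Cry1, a cryptochrome repressor that rises late in the cycle, was at 10.1, 11.5 and 11.4 CPM against 35.2, 31.7 and 20.1 CPM (log2 1.38 ± 0.28, adjusted p = 0.0209). In both genes the lowest old library was above the highest young one. Clock itself did not pass and its groups overlapped (log2 0.20 ± 0.62). Among the repressors, Per1 (log2 −1.58 ± 0.51, adjusted p = 0.0731) and Per2 (log2 −1.62 ± 0.51, adjusted p = 0.0687) did not pass, although their old libraries lay below the young ones. In all, 15 of the 22 clock genes had groups that did not overlap, against 39.5% of all genes tested. Dbp, Per3, Nr1d1 and Usp2 passed in all 9 leave-one-out fits. The clock class kept 4 calls without young 1, 4 without young 2 and 5 without vehicle 5.

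**Figure D2:**
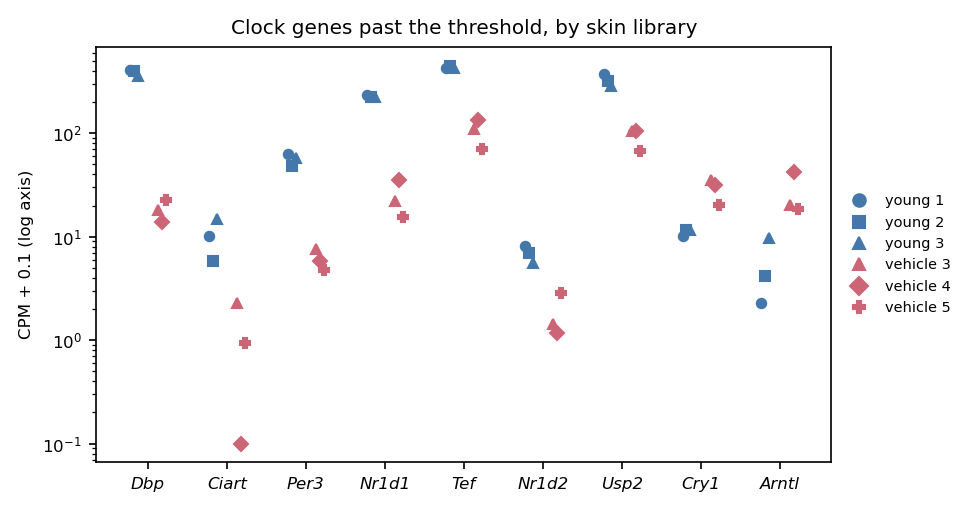
CPM + 0.1 (log axis) of the 9 clock genes past the threshold in the 3 young and 3 vehicle libraries, with 1 point per library. The old libraries lie below all young ones for Dbp to Usp2 and above them for Cry1 and Arntl, and the point at 0.1 is the library without a Ciart count.

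Clock factors act through short DNA elements, and the start regions of the called clock genes are shown because they were searched for 3 of them. Clock and Arntl bind the E-box, Dbp, Tef and Hlf bind the D-box, and the REV-ERB and ROR receptors bind the ROR element. The windows, from RefSeq (GRCm38.p6), run from 250 to 26 bases before the annotated start, and all 9 genes had one. The letters searched on both strands were CACGTG for the E-box, which reads the same on either strand, TTATGTAA or TTATGCAA for the D-box and TAGGTCA for the ROR element. An E-box was found in 3 of the 9 windows, a D-box in 1 and a ROR element in 0, and over all 32851 windows of the same length the shares were 5.16%, 1.41% and 2.02%. The 4 windows that hold a match follow, 5′ to 3′ on the strand of the gene, with the matched letters in capitals and without overlap between them. Ciart is at chr3:95882254-95882478 (minus strand), Cry1 at chr10:85185080-85185304 (minus strand), Tef at chr15:81811164-81811388 (plus strand) and Per3 at chr4:151044691-151044915 (minus strand).
Ciart: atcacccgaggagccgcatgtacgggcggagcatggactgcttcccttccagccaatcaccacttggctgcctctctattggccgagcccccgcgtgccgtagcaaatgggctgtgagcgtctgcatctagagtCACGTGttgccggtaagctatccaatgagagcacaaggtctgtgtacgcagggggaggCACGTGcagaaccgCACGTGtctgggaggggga
Cry1: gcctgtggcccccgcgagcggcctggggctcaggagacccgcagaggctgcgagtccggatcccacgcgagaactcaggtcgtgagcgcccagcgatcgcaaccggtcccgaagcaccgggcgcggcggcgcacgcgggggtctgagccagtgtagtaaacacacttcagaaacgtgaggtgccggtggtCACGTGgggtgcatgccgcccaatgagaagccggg
Tef: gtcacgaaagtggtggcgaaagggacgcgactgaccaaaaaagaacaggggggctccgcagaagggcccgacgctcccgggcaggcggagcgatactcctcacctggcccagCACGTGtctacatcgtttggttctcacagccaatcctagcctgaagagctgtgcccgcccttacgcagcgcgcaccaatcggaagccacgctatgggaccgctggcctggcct
Per3: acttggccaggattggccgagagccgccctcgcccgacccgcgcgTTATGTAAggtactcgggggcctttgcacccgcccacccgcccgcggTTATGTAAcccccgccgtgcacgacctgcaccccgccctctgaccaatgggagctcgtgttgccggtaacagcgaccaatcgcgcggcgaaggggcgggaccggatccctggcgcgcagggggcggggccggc
The Ciart matches begin 116, 58 and 44 bases before the start, that of Cry1 60 bases and that of Tef 138 bases before it, and those of Per3 at 205 and 158 bases. Genes with an E-box here moved in both directions, with Ciart and Tef lower and Cry1 higher in old skin. The Per3 window belongs to a RefSeq start 13168 bases from the start of the transcript in the deposited table, and that of Nr1d1, which holds no match, to one 4951 bases away. A match describes letters in these windows, and binding was not measured.

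The same genes were also read in kidney, liver and lung of this series, where each tissue had 4 young and 3 vehicle libraries and was fitted separately. Of the clock genes tested, 5 passed higher and 8 lower of 24 in kidney, 4 and 3 of 14 in liver, and 3 and 8 of 25 in lung, where 13.3%, 22.6% and 12.9% of all genes tested passed. Dbp was lower in all 3, with a log2 fold change of −3.93 ± 0.18 in kidney, −5.002 ± 0.32 in liver and −5.01 ± 0.32 in lung, beside −4.42 in skin. For Nr1d1 the values were −3.20 ± 0.22, −4.53 ± 0.52 and −5.86 ± 0.81, beside −3.24 in skin. Arntl was higher by 2.86 ± 0.34 in kidney and 3.16 ± 0.57 in lung and had too few counts for a test in liver. Cry1 passed in kidney (log2 2.26 ± 0.30, adjusted p = 0.0001128) and liver (log2 1.73 ± 0.46, adjusted p = 0.01247) and not in lung (log2 0.25 ± 0.34, adjusted p = 0.6535). Dbp and Nr1d1 thus passed in every tissue read. The tissues' libraries may come from the same mice, which the labels do not state, and differences between tissues were not tested.

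**Figure D3:**
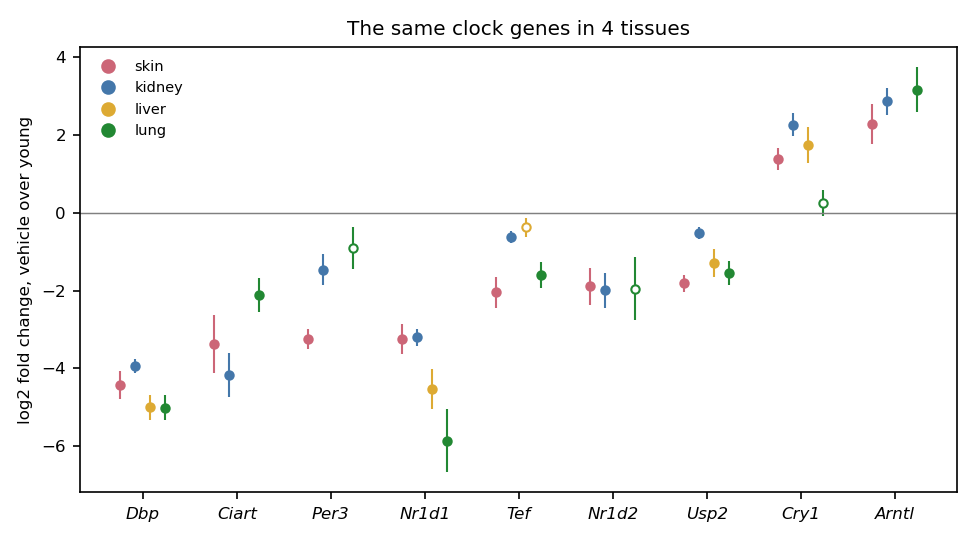
log2 fold change, vehicle over young, with its standard error for the 9 clock genes of skin in each of 4 tissues, with filled points past an adjusted p of 0.05 and no point where a gene had too few counts. Dbp and Nr1d1 lie below −3 in every tissue shown, and Arntl above 2 in the 3 tissues where it was tested.

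Inner root sheath and keratin-associated protein genes were highest in vehicle 3 among the young and vehicle libraries, and the lists differed in where vehicle 4 and 5 lay. The summed hair shaft keratins were at 671, 1334 and 1741 CPM in young skin and 6758, 1920 and 1019 CPM in vehicle 3, 4 and 5, so that vehicle 5 lay within the young range. The summed keratin-associated proteins were at 232, 32.8 and 43.7 CPM against 5857, 61.2 and 610.2 CPM, and here vehicle 4 lay within it. Krt71, an inner root sheath keratin described here after its values were seen, was at 74.5, 1.73 and 6.37 CPM in young skin and at 3739, 15.3 and 319 CPM in vehicle 3, 4 and 5. Tchh, trichohyalin, which hardens the inner root sheath, was at 43.4, 5.18 and 10.01 CPM against 2343, 12.5 and 254 CPM. Krt35, a hair cortex keratin, had 6, 0 and 0 counts in young and 774, 6 and 69 counts in vehicle libraries. In each of these genes vehicle 3 stood above all others, and vehicle 4 lay within or near the young range. Krtap11-1, a keratin-associated protein of the hair shaft, repeated the pattern with 2, 0 and 3 counts against 679, 4 and 50 counts.

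No structural hair gene passed the threshold, despite large fitted folds. The medians were 5.44 for 18 hair shaft keratins, 4.96 for 49 keratin-associated proteins and 5.56 for 14 inner root sheath genes, with 0 called by edgeR in each list. Of these lists 6, 8 and 9 genes had an unadjusted p under 0.05, beside 4520 of all 14224 genes tested. In each list limma-voom called 0, and DESeq2 called 6, 8 and 8, all higher. The fitted log2 fold changes were 5.65 ± 2.40 for Krt71 (adjusted p = 0.141) and 5.50 ± 2.10 for Tchh (adjusted p = 0.111). All 9 libraries decided which genes were tested, and many of these hair genes entered only through the ABT-737 libraries. With young and vehicle libraries only, 11 hair shaft, 16 keratin-associated and 11 inner root sheath genes were tested. Their medians were 4.85, 4.15 and 5.68, with 0 called in each list. Summed over the inner root sheath list, young skin had 747, 570.3 and 518 CPM, and vehicle 3, 4 and 5 had 13310, 378 and 1291 CPM. Among the old mice given ABT-737 the same sum was 500.3 CPM in replicate 3, and 31560 and 26590 CPM in replicates 4 and 5. High and low libraries thus occurred within both old groups, and without vehicle 3 the medians of the hair shaft and inner root sheath lists dropped to 2.06 and 2.53.

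**Figure D4:**
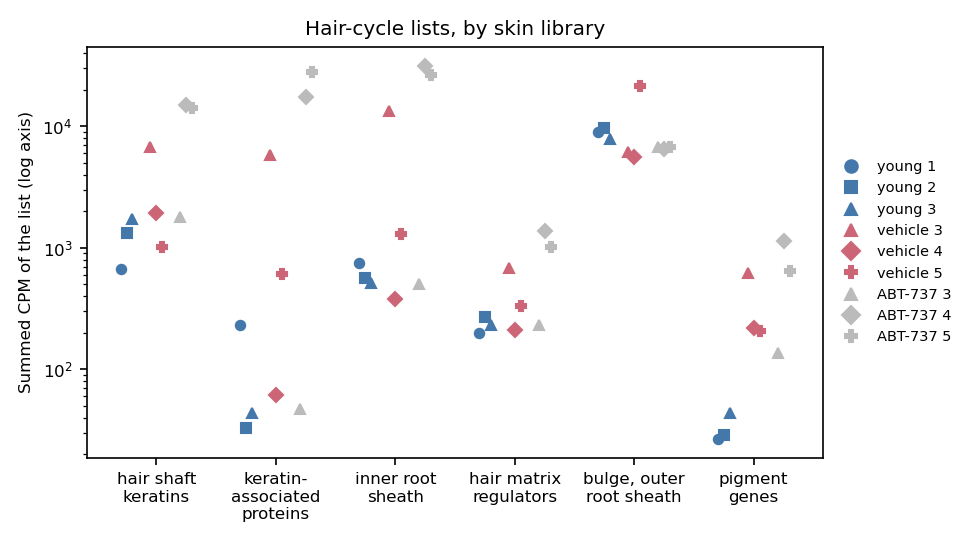
Summed CPM (log axis) of each hair-cycle list in the 3 young, 3 vehicle and 3 ABT-737 skin libraries, with 1 point per library. For the inner root sheath, vehicle 3 (13310 CPM) lies with ABT-737 replicates 4 and 5 and vehicle 4 (378 CPM) with the young libraries.

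Of the genes that direct growth of the hair matrix 0 of 16 tested passed in edgeR (2 at an unadjusted p under 0.05, 2 called by DESeq2 and 0 by limma-voom). Ovol1, a transcription factor of differentiating epithelium, was at 15.2, 33.4 and 40.9 CPM in young and 101, 59.1 and 99.3 CPM in vehicle skin (log2 1.52 ± 0.49, adjusted p = 0.0714). Dlx3, a regulator of hair differentiation, was at 5.79, 9.78 and 7.28 CPM against 79.5, 11.03 and 19.9 CPM (log2 2.24 ± 1.15, adjusted p = 0.21). The median of the list was 1.67. Vehicle 3 was again the highest library for both genes.

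Of 16 genes of the bulge, where hair stem cells reside, and the outer root sheath 2 fell, with a median of −0.44 and 6 genes fitted higher. Lgr6, a marker of stem cells in the upper follicle, was at 79.6, 66.8 and 51.4 CPM in young and 28.1, 23.8 and 13.2 CPM in vehicle skin (log2 −1.61 ± 0.39, adjusted p = 0.0324). Col17a1, the hemidesmosomal collagen that anchors basal and stem cells, was at 512, 657 and 507 CPM against 169.6, 261 and 182 CPM (log2 −1.45 ± 0.37, adjusted p = 0.0368). The groups did not overlap for either gene. Krt15, a bulge keratin added after its values were seen, was at 6064, 6270.5 and 5206 CPM in young and 1958, 2989 and 574 CPM in vehicle skin (log2 −1.67 ± 0.56, adjusted p = 0.0817). Both called genes lost significance in most of the fits without 1 library, Lgr6 passing in 4 and Col17a1 in 3 of 9. The keratins of the outer root sheath that also mark injured epidermis were high in vehicle 5. Krt6b had 2, 0 and 3 counts in young skin and 15, 0 and 22583 counts in vehicle 3, 4 and 5, and Krt16 had 28, 21 and 42 counts against 126, 31 and 14957 counts. Neither passed (adjusted p = 0.0659 and 0.0604).

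The summed pigment genes were higher in all 3 old libraries, vehicle 4 included. Gpnmb, a melanosome protein that macrophages also make, was at 13.7, 15.5 and 24.1 CPM in young and 276, 188 and 148 CPM in vehicle skin (log2 3.50 ± 0.46, adjusted p = 0.0109). Mlana, a melanosome protein, had 2, 0 and 2 counts against 158, 35 and 44 counts (log2 5.27 ± 1.34, adjusted p = 0.0374). Kit, the receptor of melanocytes and mast cells, had 1, 0 and 1 counts against 18, 20 and 27 counts, a ratio of 19.8 with a counting interval of 5.28 to 167 (adjusted p = 0.0356). These were the 3 called genes of 12 tested on the list, whose median was 4.62. With young and vehicle libraries only, 5 were tested and 4 passed, with a median of 4.14. Vehicle 4, within the young range for keratin-associated proteins, was at 221 CPM for the summed pigment list, beside 26.8 to 43.7 CPM in young skin. Gpnmb alone gave 188 CPM of that sum, so the rise in vehicle 4 was largely that of 1 gene. Mitf, the master regulator of pigment cells, did not pass (log2 −0.92 ± 0.32, adjusted p = 0.0869). Markers of mast cells and macrophages moved in the same libraries, as given below, and their part in these values was not tested. Without young 1, without young 2, without young 3 and without vehicle 5 the hair-cycle class kept 0, 0, 1 and 1 calls, without ABT-737 replicate 5 it kept 3, and without ABT-737 replicate 3 it had 22.

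To see which calls depended on hair, the mean log2(CPM + 1) of the 81 tested hair shaft, keratin-associated and inner root sheath genes was added to the model as a covariate, a choice made after seeing the data. The score was 0.92 to 2.59 in young libraries and 6.91, 1.37 and 3.83 in vehicle 3, 4 and 5. In ABT-737 replicates 3, 4 and 5, which also entered this fit and shaped it, the score was 1.355, 8.27 and 8.68. With it, 1796 genes (12.6%) passed between old and young skin, 983 higher and 813 lower, and 1353 of them were among the 1592 of the model without it, all in the same direction. The covariate itself passed for 475 genes (3.34%), of which 398 were not in the score and 11 had been called between old and young.

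The 26 listed genes of skeletal muscle summed to 149800, 104000 and 103500 CPM in young skin and to 58200, 72440 and 16820 CPM in vehicle 3, 4 and 5. All 25 genes tested had negative fold changes, with a median of −1.28, and 1 passed. Myh1, a fast myosin heavy chain, was at 5445, 3361 and 2912 CPM in young and 1324, 869.8 and 352 CPM in vehicle skin (log2 −2.20 ± 0.55, adjusted p = 0.0352). Acta1, skeletal muscle actin, was at 24234, 17325 and 16390.2 CPM against 8638, 9654 and 2941 CPM and did not pass (log2 −1.45 ± 0.49, adjusted p = 0.0792). For both genes vehicle 5 was the lowest library. Without vehicle 5 the median of the list was −0.89. The call of Myh1 was lost without each young library, without vehicle 4, without vehicle 5 and without ABT-737 replicate 5, whereas 6 genes passed without ABT-737 replicate 3. DESeq2 called 8 muscle genes, all lower.

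Of 17 adipocyte genes 0 passed in edgeR (2 at an unadjusted p under 0.05, 1 called by DESeq2 and 0 by limma-voom), and the list summed to 6948, 5324 and 6484 CPM in young and 1918, 5622 and 1463 CPM in vehicle skin, where vehicle 4 was within the young range. Car3, abundant in fat and muscle, was at 5918, 3644 and 4169 CPM against 1045, 1855 and 463 CPM (log2 −2.03 ± 0.72, adjusted p = 0.0926). Of the brown fat list 1 gene passed in each direction. Cox8b, a cytochrome oxidase subunit of brown fat and muscle, fell from 965, 673 and 621 CPM to 134, 154 and 75.0 CPM (log2 −2.64 ± 0.52, adjusted p = 0.0189). Elovl3, a fatty acid elongase of brown fat and also of sebaceous glands, was at 18.8, 22.4 and 21.8 CPM against 106, 34.5 and 209 CPM (log2 2.47 ± 0.56, adjusted p = 0.0283). The members of that list are also made in muscle and in gland cells, so its name does not describe them here.

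Of 11 basal keratinocyte genes 0 passed in edgeR, DESeq2 or limma-voom (2 at an unadjusted p under 0.05, median −0.42), their sum being highest in vehicle 5 at 17680 CPM, and of 17 genes of the differentiating layers 5 rose, with a median of 1.14. Flg, filaggrin, a protein of the cornified barrier, was at 26.0, 59.3 and 76.0 CPM in young and 472, 222 and 2467 CPM in vehicle skin (log2 4.29 ± 0.86, adjusted p = 0.0197). Ivl, involucrin of the cornified envelope, was at 22.4, 39.7 and 48.2 CPM against 95.4, 104 and 189.8 CPM (log2 1.81 ± 0.36, adjusted p = 0.0189). Sebaceous gland genes rose in 4 of 12 tested (median 1.64), among them Krt79, a keratin of the gland duct, at 228, 345 and 372 CPM in young and 1206, 651 and 989.6 CPM in vehicle skin (log2 1.59 ± 0.33, adjusted p = 0.0218). Vehicle 5 held the highest values of Flg and Ivl. Without it, and likewise without young 3, 1 gene of the differentiating layers and 1 sebaceous gene passed, and without young 1 or without young 2 the count was 0 in both lists. Without ABT-737 replicate 5 the differentiating layers kept 3 calls, and without ABT-737 replicate 4 the sebaceous list had 8.

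Of 13 blood endothelial genes 4 rose, with a median of 1.05, and Pecam1, the endothelial adhesion molecule CD31, was at 23.2, 35.7 and 33.7 CPM in young and 64.6, 99.7 and 87.7 CPM in vehicle skin (log2 1.44 ± 0.25, adjusted p = 0.0146). Flt4, the lymphatic receptor VEGFR3, was the 1 of 5 lymphatic genes to pass, at 4.34, 5.75 and 4.55 CPM against 22.8, 13.5 and 23.7 CPM (log2 2.02 ± 0.43, adjusted p = 0.0224). Of 14 fibroblast genes 3 rose, but their summed level was 1503, 4270 and 6626 CPM in young and 5312, 4750 and 9788 CPM in vehicle skin, so that the groups overlapped. Young 1 was the lowest library for that list. Thy1, among its called genes, is also on the T cell list. Of 10 smooth muscle and pericyte genes 0 passed in edgeR (3 at an unadjusted p under 0.05, 2 called by DESeq2 and 0 by limma-voom), and of 8 Schwann cell genes 1 rose. Without vehicle 5 the endothelial list kept 1 call and the lymphatic and fibroblast lists 0, and the fibroblast list kept 1 without vehicle 4 and 1 without ABT-737 replicate 5.

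Red cell genes rose although the animals were perfused. Hbb-bs and Hbb-bt, near-identical adult β-globin genes that can share reads, were at 279, 308 and 277 CPM and at 68.7, 66.8 and 59.1 CPM in young skin. In vehicle 3, 4 and 5 they were at 2547, 8352 and 742 CPM and at 853, 3211 and 211 CPM (log2 3.75 ± 0.79 and 4.46 ± 0.91, adjusted p = 0.0227 and 0.0205). Every old library exceeded every young one, and vehicle 4 held the most. Of the 6 erythroid genes 5 passed, including Alas2, the heme synthesis enzyme of red cell precursors, with 11, 10 and 6 counts against 88, 477 and 40 counts (log2 3.78 ± 0.92, adjusted p = 0.033). Without young 3 the erythroid list had 0 calls, and without vehicle 4 it kept 3.

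Among the immune cell lists, that of antibody and B cell genes had the largest median rise, though not in every library. Igkc, the κ light chain constant region (chr6:70726435-70726966), had 2, 6 and 10 counts in young skin and 339, 2764 and 407 counts in vehicle 3, 4 and 5 (log2 6.96 ± 1.003, adjusted p = 0.0112). Ighm, the heavy chain of IgM, was at 11.6, 10.4 and 17.7 CPM against 82.2, 487 and 83.0 CPM (log2 4.02 ± 0.77, adjusted p = 0.0175). Vehicle 4 was again the highest library, as it was for red cell genes. Of the 8 antibody and B cell genes tested 4 passed, with a median of 4.60, and 2 passed without young 3. Without vehicle 4 the median was 3.21. In vehicle 5 the list's summed CPM was up by a log2 of 2.49 over the young mean. That was less than the 3.18 of macrophage and 3.035 of mast cell genes there.

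Macrophage genes rose almost as a whole list, with 14 of 17 passing and a median of 3.20. Cd68, a lysosomal protein of macrophages, was at 1.45, 11.5 and 13.2 CPM in young and 92.7, 85.4 and 154 CPM in vehicle skin (log2 3.603 ± 0.59, adjusted p = 0.013). Adgre1, the F4/80 antigen, was at 0.724, 1.15 and 5.91 CPM against 23.3, 39.9 and 45.2 CPM (log2 3.64 ± 0.63, adjusted p = 0.0145). C1qa, a subunit of the first complement component made by tissue macrophages, was at 73.1, 84.0 and 174 CPM against 332, 611 and 762 CPM (log2 2.36 ± 0.44, adjusted p = 0.017). The summed list stood at 293, 425 and 851 CPM in young and 1760.0, 3357 and 4298 CPM in vehicle libraries, without overlap.

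T cell genes followed, with 8 of 10 passing and a median of 2.18. Trbc2, a constant region of the T cell receptor β chain, was at 19.5, 25.9 and 37.8 CPM in young and 65.5, 66.2 and 103 CPM in vehicle skin (log2 1.49 ± 0.28, adjusted p = 0.017). Lck, the kinase of T cell receptor signalling, had 2, 0 and 0 counts against 20, 16 and 90 counts, a ratio of 38.5 with a counting interval of 10.4 to 321 (adjusted p = 0.0282). Of 12 genes of cytotoxic lymphocytes 3 could be tested and Ctsw, a protease of these cells, passed (log2 2.34 ± 0.44, adjusted p = 0.0172), while Prf1 did not (log2 1.27 ± 0.36, adjusted p = 0.053). Mast cell genes rose in 3 of 6, among them Mcpt4, a connective tissue mast cell protease, at 6.51, 17.3 and 28.2 CPM against 36.5, 132 and 116 CPM (log2 2.42 ± 0.63, adjusted p = 0.0395). Kit, counted above with the pigment genes, was also among the 3. Of 11 neutrophil genes 1 was tested and it did not pass in edgeR. The T cell list kept 1 call without young 3 and 1 without vehicle 5, 5 without vehicle 3, 4 without vehicle 4 and 4 without ABT-737 replicate 5. The mast cell list had 0 calls without young 3 or without vehicle 5, 1 without vehicle 4 or without ABT-737 replicate 5, 5 without vehicle 3 and 6 without ABT-737 replicate 3.

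Antigen presentation, interferon and complement genes rose beside the immune cell markers. All 8 tested genes of MHC class II passed, with a median of 2.06, and H2-Aa, the α chain of I-A, was at 155, 269 and 486 CPM in young and 1843, 1860.3 and 1363 CPM in vehicle skin (log2 2.48 ± 0.48, adjusted p = 0.0186). Of 22 interferon-stimulated genes 16 rose, with a median of 2.45, including Bst2, tetherin, at 15.2, 16.1 and 17.7 CPM against 72.5, 77.9 and 118 CPM (log2 2.45 ± 0.34, adjusted p = 0.0112). Rsad2, viperin, had 1, 1 and 4 counts against 20, 103 and 128 counts (log2 4.55 ± 0.69, adjusted p = 0.0114). For all these genes the groups did not overlap, as in nearly all genes called higher. Of 14 complement genes 10 rose, with a median of 2.28, and C2, a protease of the classical pathway, was at 16.6, 10.4 and 11.8 CPM against 60.6, 80.1 and 70.3 CPM (log2 2.45 ± 0.33, adjusted p = 0.0112). C1qc, among those that rose, is also on the macrophage list. Of 18 genes of MHC class I and the immunoproteasome 2 rose.

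These calls, too, leaned on single libraries. Without young 1 the macrophage list kept 1 call, every other composition list and the MHC class II and interferon lists had 0, and without young 2 all of them had 0. Without young 3 they kept 10, 6 and 6, and without vehicle 5 they kept 4, 3 and 6. MHC class II kept 5 calls without vehicle 3, without vehicle 4 or without ABT-737 replicate 5, and complement kept 1, 0 and 3 without young 1, without young 2 and without vehicle 5. The whole composition class had 1 call without young 1, 0 without young 2, 25 without young 3 and 17 without vehicle 5. The size of the difference moved less than the calls. In the 9 fits without 1 library the median ranged from 2.45 to 3.61 for macrophage genes, from 1.83 to 2.61 for MHC class II and from 2.03 to 2.76 for interferon-stimulated genes.

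**Figure D5:**
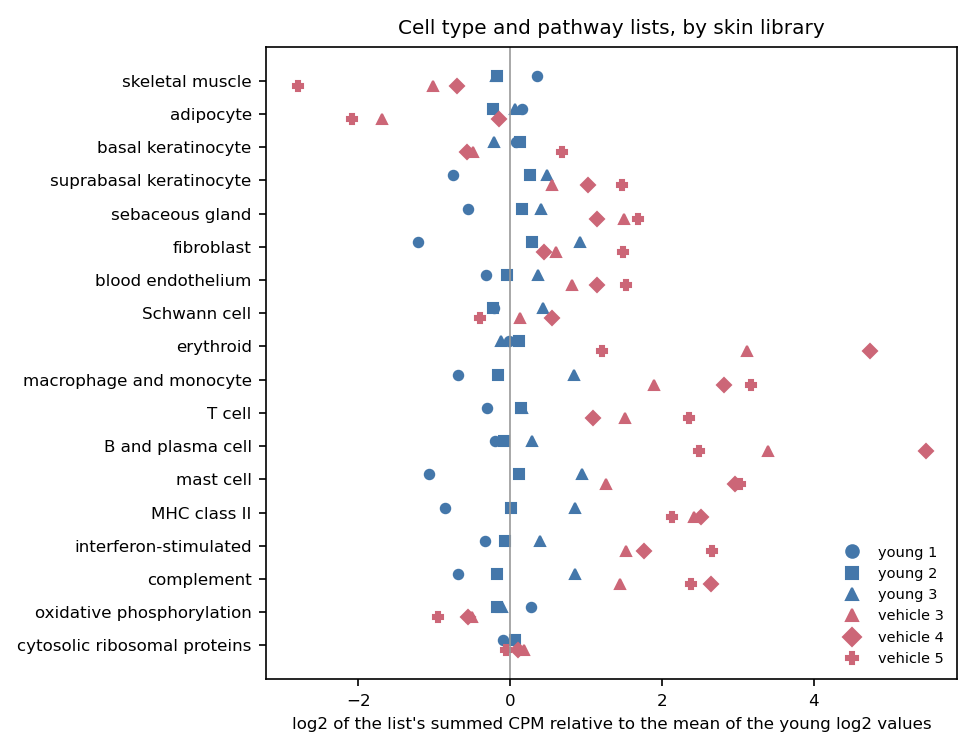
log2 of each list's summed CPM relative to the mean of the young log2 values, for the 3 young and 3 vehicle skin libraries. Vehicle 5 has the lowest muscle level and vehicle 4 the highest red cell and antibody levels, and MHC class II lies above the young range in all 3 old libraries.

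Cytokine genes rose in 8 of the 21 tested, with a median of 2.56. Ccl5, a chemokine for T cells, had 2, 3 and 5 counts in young and 56, 84 and 627 counts in vehicle libraries (log2 5.32 ± 0.94, adjusted p = 0.0148). Ccl8, a chemokine for monocytes, had 8, 15 and 15 counts against 73, 1649 and 1237 counts (log2 5.48 ± 1.05, adjusted p = 0.0178). Cxcl12, a chemokine of stromal cells, was at 34.0, 45.5 and 43.2 CPM against 138, 265 and 321 CPM (log2 2.56 ± 0.38, adjusted p = 0.0112). In each of these genes the lowest old library was above the highest young one, as in nearly all genes called higher. Ccl2 had 0, 2 and 2 counts against 22, 18 and 159 counts (log2 4.69 ± 1.30, adjusted p = 0.0481), whereas Cxcl9 (adjusted p = 0.0906) and Cxcl10 (adjusted p = 0.0934) did not pass. Il6 had 0 counts in all 9 libraries, so that at this depth it was not detectable, and Tnf and Il10 had too few counts to test. Without young 1 or without young 2 the cytokine list had 0 calls, and it kept 4 without young 3 and 5 without vehicle 5.

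Of the senescence regulators 3 of 14 rose, with a median of 0.18, 8 genes fitted higher and 6 fitted lower. Cdkn2b, the cyclin-dependent kinase inhibitor p15, was at 8.68, 6.33 and 11.4 CPM in young and 21.5, 24.9 and 30.9 CPM in vehicle skin (log2 1.54 ± 0.29, adjusted p = 0.0167). Cdkn2a, the gene of p16 and p19ARF, had 1, 0 and 0 counts in young and 11, 8 and 24 counts in vehicle libraries and was too low for the model. Its ratio over the summed groups was 26.3 with an exact 95% counting interval of 4.47 to 1061, which leaves out the spread between mice. Cdkn1a, the inhibitor p21, was at 344, 372 and 440.3 CPM against 702, 552 and 717 CPM and did not pass (log2 0.77 ± 0.29, adjusted p = 0.106), although the groups did not overlap. The list had 0 calls without young 1, without young 2 or without vehicle 5 and 5 without ABT-737 replicate 3.

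Of 20 fibrillar and basement membrane collagens 0 passed in edgeR or limma-voom (median 0.90, with 12 at an unadjusted p under 0.05), whereas DESeq2 called 6 higher and 2 lower and edgeR without vehicle 4 called 4 higher, and their summed level overlapped, at 2053, 5670.0 and 8264 CPM in young and 6962, 4382 and 12590 CPM in vehicle skin. Of 26 genes for matrix assembly 8 rose, with a median of 1.18. Fbln5, an elastic fibre protein, was at 0.724, 5.18 and 7.28 CPM against 26.8, 34.2 and 46.1 CPM (log2 2.93 ± 0.49, adjusted p = 0.0134). Thbs2, thrombospondin 2, was at 13.7, 22.4 and 14.6 CPM against 43.5, 60.5 and 223 CPM (log2 2.69 ± 0.66, adjusted p = 0.0342). Mmp19 was the 1 of 11 metalloproteinase genes to pass (log2 2.33 ± 0.50, adjusted p = 0.0233). The matrix assembly list kept 1 call without young 1, 0 without young 2, 3 without young 3, 5 without vehicle 4, 1 without vehicle 5, 5 when ABT-737 replicate 4 was dropped and 2 when replicate 5 was dropped. Mmp19 was not called without any 1 of the young libraries or without vehicle 5, and 6 metalloproteinase genes passed without vehicle 3.

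Of 25 genes for cholesterol and fatty acid synthesis 6 rose, with a median of 1.15, and Acly, which makes cytosolic acetyl-CoA, was at 31.8, 45.5 and 55.9 CPM in young and 117, 98.9 and 162 CPM in vehicle skin (log2 1.498 ± 0.26, adjusted p = 0.0147). Of 71 oxidative phosphorylation genes 17 fell and 0 rose, with a median of −0.68. Atp5k, a subunit of ATP synthase, was at 324, 265 and 243 CPM against 89.2, 87.2 and 77.2 CPM (log2 −1.71 ± 0.20, adjusted p = 0.00874). Ndufs5, a subunit of complex I, was at 50.6, 38.6 and 41.8 CPM against 14.9, 13.2 and 9.66 CPM (log2 −1.80 ± 0.23, adjusted p = 0.0105). The old libraries lay closely together for both, and both passed in each fit without 1 library. Without young 1, without young 2, without young 3 and without vehicle 5 the list kept 2, 3, 7 and 5 lower calls, and it had 29 without ABT-737 replicate 3. The lipid synthesis list had 0 calls without young 1 or without young 2, 3 without young 3 or without vehicle 3, 1 without vehicle 5, 11 without vehicle 4 and 12 without ABT-737 replicate 3. The list of skeletal muscle, a tissue rich in mitochondria, fell in the same libraries, and its part in these values cannot be told apart from age. Of 79 ribosomal protein genes 6 fell and 0 rose, where 5.35% of all genes tested were lower and 5.84% higher. Their median was −0.17, with 31 genes fitted higher and 48 fitted lower. Their summed level was 38080, 42660 and 41240 CPM in young and 46040, 43540 and 39060 CPM in vehicle skin. Rpl36 (log2 −1.69 ± 0.29, adjusted p = 0.0145) was among those that fell, and such genes can share reads with their pseudogenes. The list had 0 calls without young 1 or without young 2, and 2 without young 3 or without vehicle 5.

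A second covariate, chosen after seeing the data, was the mean log2(CPM + 1) of the 25 tested muscle genes. It was 11.2 to 11.8 in young and 8.52 to 10.6 in vehicle libraries, so that the groups did not overlap on it and muscle and age cannot be told apart in this fit. With it 125 genes passed, 46 higher and 79 lower, and 107 of them were among the 1592, all in the same direction. Of the clock class 5 genes passed, of the hair-cycle class 1, of the composition class 7 and of the rest 112. The calls of the macrophage, T cell and interferon lists went to 0, MHC class II and complement kept 1 each and the respiratory chain kept 3 lower calls, while the medians were 2.42 for macrophage genes, 1.68 for interferon-stimulated genes and 2.25 for MHC class II. Dbp (log2 −4.33), Per3 (−2.99), Nr1d1 (−2.49), Usp2 (−1.55) and Cry1 (1.85) were the clock genes that passed. Igkc (7.57), Hbb-bs (4.83), C2 (2.60) and Atp5k (−1.45) passed as well.

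Among called genes on no clock, hair-cycle or composition list, the 12 that rose most were chosen by size, with groups that did not overlap and at least 10 counts in each old library. They included Ccl5 and Ccl8 above. Fcgr4, an activating Fc receptor of myeloid cells, had 0 counts in each young library and 24, 20 and 134 counts in vehicle 3, 4 and 5, which is at least 36.2-fold higher against 3 counts over the young group (adjusted p = 0.0218). Gp9, a platelet glycoprotein, had 0 counts in young and 11, 23 and 15 counts in vehicle libraries, at least 9.97-fold higher (adjusted p = 0.0147). Mpeg1, perforin-2 of macrophages, had 0, 0 and 1 counts against 25, 13 and 73 counts, a ratio of 67.8 with a counting interval of 11.9 to 2701 (adjusted p = 0.0135). These genes are known from platelets and myeloid cells.

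Others of the 12 were highest by far in vehicle 5. Saa3, an acute-phase serum amyloid, had 1, 2 and 0 counts in young skin and 39, 17 and 3664 counts in vehicle 3, 4 and 5, a ratio of 757 with a counting interval of 259 to 3673 (adjusted p = 0.0398). Klk6, a kallikrein of stressed epidermis, had 6, 6 and 10 counts against 151, 29 and 2783 counts (log2 6.08 ± 1.54, adjusted p = 0.0368). Rptn, repetin of the cornified envelope, had 1, 0 and 7 counts against 44, 20 and 1456 counts (log2 6.57 ± 1.68, adjusted p = 0.0374). Slpi, an inhibitor of leukocyte proteases that shares its reads with the annotated microRNA gene Mir7678, had 0, 1 and 0 counts against 25, 27 and 498 counts. In all 4 vehicle 5 was far above the other old libraries, as it was for Krt6b and Krt16. The remaining members of the 12 were Slc34a2, a phosphate transporter, and Prg4, the joint lubricant lubricin, with 1, 0 and 0 against 21, 11 and 61 counts and 4, 0 and 2 against 10, 32 and 405 counts.

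The 12 that fell most were chosen by the same rule. Th, tyrosine hydroxylase of catecholamine synthesis, was at 13.0, 23.6 and 16.8 CPM in young and 1.32, 0.356 and 0.828 CPM in vehicle skin (log2 −4.39 ± 0.99, adjusted p = 0.0279). Myh13, a myosin heavy chain of specialised muscles, was at 23.2, 9.78 and 9.10 CPM against 2.20, 0.712 and 0.276 CPM (log2 −3.78 ± 0.88, adjusted p = 0.0297). Mir133a-2, the locus of a microRNA of muscle, was at 81.0, 58.7 and 68.2 CPM against 9.23, 3.56 and 3.86 CPM (log2 −3.67 ± 0.50, adjusted p = 0.0112). Padi2, a protein arginine deiminase, was at 122, 96.7 and 96.0 CPM against 18.5, 8.90 and 8.28 CPM (log2 −3.16 ± 0.72, adjusted p = 0.0283), and Slc17a9, the vesicular nucleotide transporter, at 78.9, 58.1 and 48.7 CPM against 11.9, 4.98 and 4.69 CPM (log2 −3.13 ± 0.45, adjusted p = 0.0112). Every old library lay below every young one, as the rule required. The others were Foxo6os, Olfr986, Klhl33, Hoxd3os1, n-R5s94, AC160338.2 and AC159475.1, with log2 fold changes of −3.68 to −2.86. The muscle list fell in the same libraries. The muscle score did not overlap between the groups, so the part of muscle in these values cannot be told apart from age.

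Some named genes overlap another counted gene, and without a stated use of strand their reads cannot be told apart. This holds for Dbp with Car11 and Sphk2, Arntl with Btbd10, Col17a1 with Slk, Flg with Rplp0-ps1, Cox8b with Psmd13, Elovl3 with Pitx3, Alas2 with Apex2, Cd68 with Mir1934, Lck with Mir8119, Ctsw with Fibp, C2 with Gm20547, Atp5k with Pde6b, Rpl36 with Lonp1, Acly with Mir7116, Mmp19 with Tmem198b, Mpeg1 with Dtx4, Prg4 with Tpr, Myh1 with Myhas, Acta1 with Gm20388, Cdkn2a with Gm12606, Cxcl10 with Art3 and Hoxd3os1 with Hoxd3 and Hoxd8.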

How the data were processed

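RNA from 9 skin samples was made into 3′ libraries by a bulk derivation of MARS-seq. The authors deposited whole-number read counts per gene without normalization. The submitters' processing notes name bcl2fastq, HISAT 0.1.5, HOMER and mm10. Collapsing of molecule barcodes and the use of strand were not given in the sources used here, so counting intervals cover counting error only. Among the skin symbols, 26 read as dates.

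Samples were grouped by their titles. Low genes were removed with filterByExpr, libraries were scaled by TMM, and all 9 libraries were fitted with edgeR 4.0.16 (R 4.3.3, quasi-likelihood test, Benjamini-Hochberg adjustment over 14224 genes, threshold 0.05). The biological coefficient of variation was 34.9%. Kidney, liver and lung were fitted in the same way. Where a group had 0 counts, 3 counts over the group gave the bound, and where it had 1 to 3 counts the ratio has an exact 95% interval. Scores used a pseudocount of 1 CPM. Replicate pairs differed by more than sampling noise. No source says that libraries came from separate cages or litters. Each p-value sets a difference against the spread within the groups of the libraries fitted, those given ABT-737 included, and takes no account of cages or litters.

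The members and lists were chosen with earlier results of these data known. Genes named were all tested clock genes, up to 4 genes of smallest p per other list, the 12 largest rises and 12 largest falls outside the clock, hair-cycle and composition lists, and 12 genes of the study's own interest. Krt71, Krt6a and Krt15 were added after their values were seen. Alternatives were DESeq2 1.42.0 and its size factors, limma-voom (limma 3.58.1), TMM without listed genes, no filter, at least 10 counts in every library, 6 libraries only, 1 gene of each of 21 sets with identical counts, an absolute log2 fold change over 1, and each library left out. The code was tested on simulated data.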

Additional observations from a re-analysis of the deposited data

Results flagged for a closer look

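Cry2, a cryptochrome repressor of the clock, went opposite ways in skin and kidney. In skin it was at 82.5, 77.1 and 76.4 CPM in young and 35.2, 53.0 and 17.9 CPM in vehicle libraries (log2 −1.16 ± 0.39, adjusted p = 0.0821), with every old library below every young one. In kidney it was at 19.8 ± 4.63 CPM (SD, n = 4) in young and 30.2 ± 2.41 CPM (SD, n = 3) in vehicle libraries (log2 0.58 ± 0.20, adjusted p = 0.07086), with every old library above every young one. Neither difference passed, and the difference between the tissues was not tested. In lung Cry2 passed, with vehicle below young (log2 −1.0 ± 0.29, adjusted p = 0.03702), and in liver it did not (log2 −0.09 ± 0.31, adjusted p = 0.8707).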

How the results depend on the processing

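Counts of calls below are for all genes, then the clock, hair-cycle and composition classes and the rest, where the model gave 1592, 9, 5, 54 and 1524. DESeq2 gave 2665 in all, 34 hair-cycle, 86 composition and 2532 remaining genes. limma-voom gave 3 hair-cycle and 25 composition genes, no filter gave 46 and 95, at least 10 counts in every library gave 3 hair-cycle genes, and old vehicle and young libraries only gave 8. The hair covariate gave 10 hair-cycle genes, and the muscle covariate 125, 5, 1, 7 and 112. Without 1 library the counts ranged from 39 to 2459, 4 to 11, 0 to 22, 0 to 81 and 34 to 2345. The lowest came without young 1 or young 2 and the highest without ABT-737 replicate 3, and the cause was not tested. The remaining class held 34 calls without young 1, 37 without young 2, 654 without young 3 and 359 without vehicle 5. Of the calls 52.2% were higher in old skin, against 36.3% by limma-voom, 61.8% without a filter, 36.8% with the muscle covariate, 25.6% without young 1 and 17.1% without young 2. No named gene that passed changed direction under any alternative. Of 121 named genes that passed, 6 passed in all 9 fits without 1 library. No paired analysis was possible because the old and young groups share only the replicate number 3. Depth limits genes with few counts, such as Cdkn2a and Il6.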

Other observations

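Pseudogenes made up a large part of the genes lower in old skin. By GENCODE's classes, 279 of the 1389 pseudogenes tested were lower and 6 higher (median log2 fold change −0.58), whereas of 11871 protein-coding genes 385 were lower and 802 higher (median 0.14). Of 607 other RNA genes 62 were lower and 15 higher. Totals overlapped between the groups, with the deepest library in the old group, and the part of depth in this split was not tested.

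Position genes of the Hox clusters changed little as a list, with 2 of 23 lower and none higher (median −0.43). Hoxa9 was at 31.8, 10.9 and 14.1 CPM in young and 5.71, 3.91 and 3.03 CPM in vehicle skin (log2 −2.16 ± 0.49, adjusted p = 0.0278). Hoxd4, which shares reads with Gm28230 and Hoxd3, was at 13.7, 14.4 and 13.2 CPM against 5.71, 5.34 and 4.41 CPM (log2 −1.42 ± 0.29, adjusted p = 0.0203). Among imprinted growth genes H19 fell, from 748, 506 and 543 CPM to 181, 233 and 113 CPM (log2 −1.77 ± 0.40, adjusted p = 0.0282), and Cdkn1c rose (log2 1.39, adjusted p = 0.0311). Of 19 immediate early genes 2 were called higher, beside 5.84% of all genes tested, and the list had a median of 0.17 with 5 genes fitted lower. Among the 2 was Egr3, at 7.96, 8.06 and 17.3 CPM against 40.0, 26.3 and 44.4 CPM (log2 1.70 ± 0.39, adjusted p = 0.0282). No heat shock gene of 14 and no cell cycle gene of 33 passed, by edgeR or limma-voom, and DESeq2 called 2 and 4. At an unadjusted p under 0.05 were 4 and 5, beside 4520 of all 14224 genes tested. Of 14 glucocorticoid-responsive genes 1 was called higher, beside the same 5.84%, with a median of 0.16, 8 genes fitted higher and 6 fitted lower. The called gene was Mt2, a metallothionein, at 619, 741 and 644 CPM against 1027, 1406 and 1169 CPM (log2 0.85 ± 0.21, adjusted p = 0.0363).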
